A study of Caenorhabditis elegans with 27 samples.

Results

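The 4 genes described here, srlf-3, srlf-12, srlf-13 and srlf-14, belong to the srlf gene class of the nematode Caenorhabditis elegans. They were followed in whole worms that ate Escherichia coli OP50 with black rice extract (BRE) or OP50 alone. They were chosen by name, as the srlf genes whose level had been higher with BRE in these same libraries. Every value of BRE against OP50 for them is therefore a description, and where calls of them in these contrasts are counted, nothing is read from the count. All 4 passed the filter on low counts, as did 17 of the 32 other srlf gene entries. The whole table holds 46934 genes, of which 19290 were tested.

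Worm gene classes of this kind often lie as runs of neighbouring copies on a chromosome, and closely placed worm genes on one strand can be transcribed together. Black rice is rich in anthocyanins, the purple plant pigments. No function of the srlf proteins is annotated in the sources used here, so the genes are described by position, level, age and diet.

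The BRE groups covered days 6, 11, 15 and 17, and the OP50 groups covered days 1, 6, 11, 15 and 17, with 3 libraries per group that the labels call biological replicates. All worms were wild type (N2), placed on their diet as synchronized L4 larvae at 20 °C, and each library came from a pool of about 1000 worms, so a library averages over many animals. No BRE group exists at day 1. Several extract concentrations are named in the labels, which do not say which one the sequenced worms received. The 27 libraries held between 101.61 and 164.34 M counts, with a median of 137.09 M. CPM stands for a gene's count relative to the TMM-normalized library size, and differences are given as log2 fold changes from edgeR with their standard error (SE). A gene was called when its Benjamini-Hochberg adjusted p over all tested genes was under 0.05.

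Genes of 10 marker lists were used to check the tissue, and markers of intestine, pharynx, epidermis, body wall muscle, neurons and germline all had counts. In 9 of these lists no tested gene was called in any contrast of BRE with OP50, though some lists shifted without calls. The 7 body wall muscle markers all had a difference above 0 at days 11 and 15, with medians of 0.52 and 0.58 (log2). At days 6 and 17, 0 and 3 of the 7 were above 0, with medians of -0.17 and -0.05. Of 12 pharynx markers, 10, 6, 8 and 5 were above 0 at days 6, 11, 15 and 17, with medians of 0.17, -0.08, 0.52 and -0.12. At day 6, 2 of 10 intestine markers were above 0, with a median of -0.10. At day 11, 0 of 7 germline and oocyte markers were, with a median of -0.07. At day 15, 7 of 7 epidermis markers were, with a median of 0.20. In the list of pharyngeal cuticle and disordered protein classes, 1 of 107 tested genes was called, idpp-1. In this list 42 genes were above 0 at day 6 and 85 at day 15, with medians of -0.08 and 0.35. The summed level of the intestine markers was 685 to 794 CPM in the BRE libraries of day 17, against 643 to 899 CPM in the OP50 libraries of that day. In whole worms, fewer cells of a type and less RNA per cell cannot be told apart. Transcripts of the msp genes, which encode the major sperm proteins, summed to between 0.387 and 85.4 CPM per library. Their median log2 difference of BRE minus OP50 over 28 tested genes was 2.96 at day 6, with 25 above 0, 0.70 at day 11, with 27 above 0, and -2.71 at day 15 and -2.91 at day 17, with 0 above 0. The 4 libraries richest in them were OP50 day 15 replicate 3, OP50 day 17 replicate 1, BRE day 11 replicate 1 and OP50 day 11 replicate 1. Without these 4 libraries, a setting added after seeing the data, the averaged log2 differences of BRE minus OP50 were 1.00 for srlf-3, 1.97 for srlf-12, 3.52 for srlf-14 and 2.48 for srlf-13. The part of body wall muscle or of any other tissue in the srlf values was not tested.

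A run of 3 of these genes sits side by side. On chromosome IV of WBcel235, srlf-12 (WBGene00045207) runs from 10891333 to 10892093 with 3 exons. The next gene, srlf-14 (WBGene00008757), runs from 10893580 to 10894355 with 2 exons. It is followed by srlf-13 (WBGene00008753), from 10895225 to 10896612 with 4 exons. All of them lie on the minus strand, within 5280 bases, and no other annotated gene lies between them. The gaps are 1486 bases between srlf-12 and srlf-14 and 869 bases between srlf-14 and srlf-13. The fourth gene, srlf-3 (WBGene00016180), lies 2402842 bases away on the plus strand of the same chromosome, from 8487483 to 8488490, with 2 exons. Its nearest srlf neighbour is srlf-2, 1724 bases further on. Of the 36 srlf entries in the table, 21 lie on chromosome IV, 9 on V, 4 on II and 2 on III, and 1 symbol, srlf-6, stands for 2 gene IDs. None of the 4 genes overlaps another annotated gene, while 8 srlf genes do. The sources used here do not say how reads that match several srlf genes were counted, and the likeness of their sequences was not checked, so counts of near-identical copies are uncertain.

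The 4 genes lay below the highest levels of the class. Per kilobase of exon and over all 27 libraries, srlf-3 averaged 7.80 CPM per kb, the seventh highest of the 36 entries. The level was 1.68 CPM per kb for srlf-12, 0.911 for srlf-13 and 0.424 for srlf-14. The highest levels were those of srlf-7 with 483 CPM per kb and srlf-1 with 331 CPM per kb. The depth behind the 4 genes differed accordingly: srlf-3 had 84 to 3319 counts in a library, srlf-12 had 2 to 600, srlf-14 had 0 to 229 and srlf-13 had 0 to 1339. No count of srlf-13 was recorded in 7 libraries, and none of srlf-14 in 1.

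**Figure D1:**
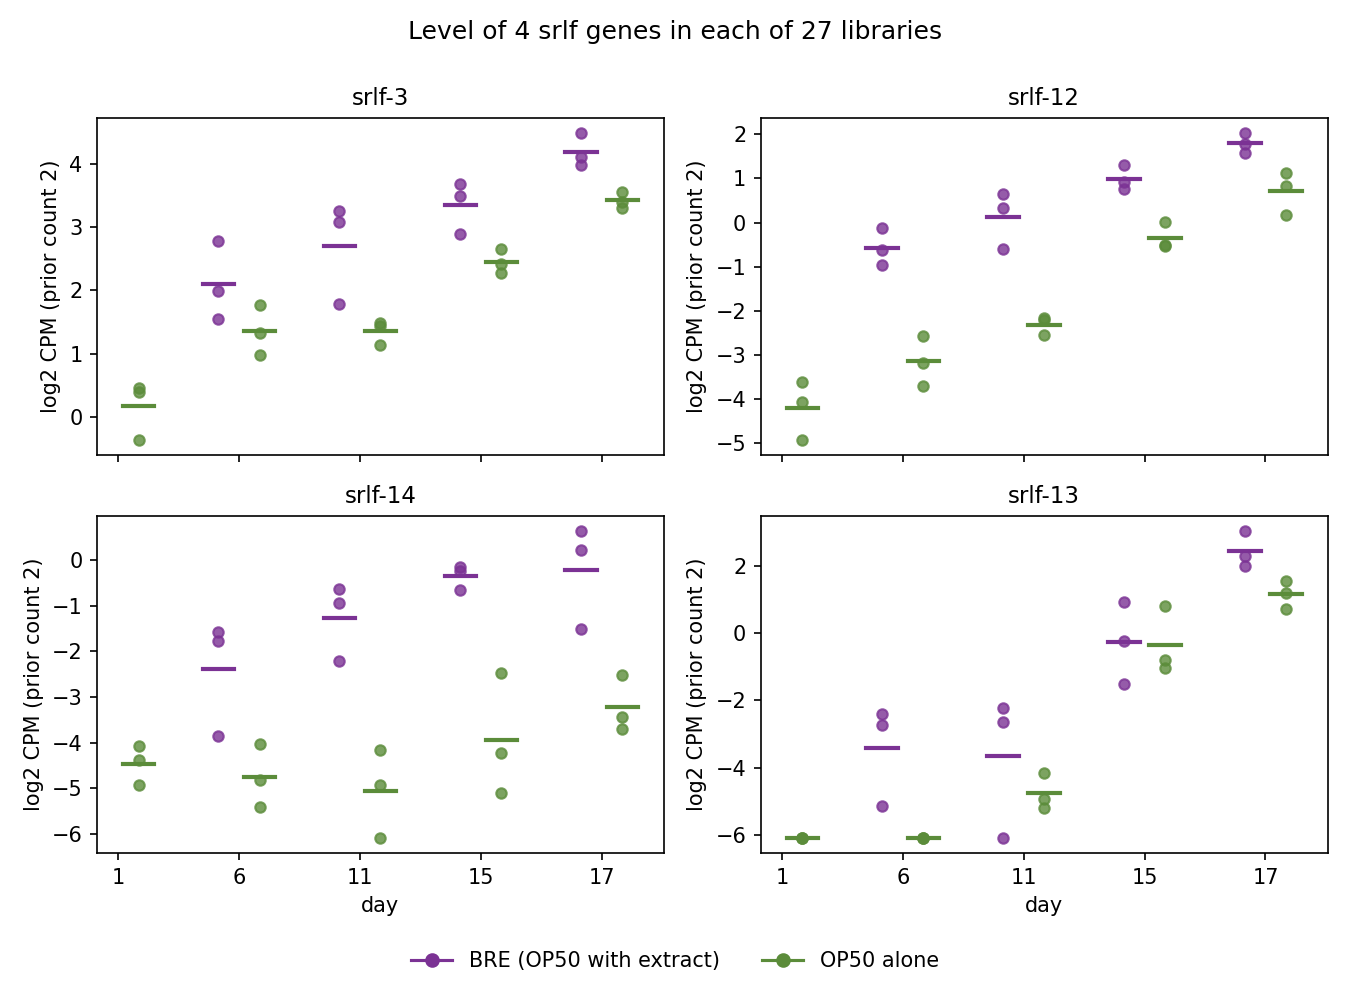
Level of srlf-3, srlf-12, srlf-14 and srlf-13 in each of the 27 libraries, as log2 CPM with a prior count of 2 (y axis), by day (x axis). Points are libraries, bars are group means, BRE is purple and stands left of OP50 in green. The 3 BRE libraries of srlf-12 and srlf-14 lie above the 3 OP50 libraries on each of the 4 shared days.

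The gene srlf-12 was higher with BRE on every shared day. Its BRE libraries held 0.497, 0.903 and 0.632 CPM at day 6, 0.648, 1.25 and 1.54 CPM at day 11, 1.87, 2.45 and 1.69 CPM at day 15, and 2.98, 4.05 and 3.43 CPM at day 17. The OP50 libraries held 0.0448, 0.0669 and 0.0182 CPM at day 1, 0.0960, 0.154 and 0.0622 CPM at day 6, 0.155, 0.201 and 0.207 CPM at day 11, 0.988, 0.679 and 0.688 CPM at day 15, and 2.17, 1.11 and 1.77 CPM at day 17. Every BRE library stood above every OP50 library of its day, with no overlap on any of the 4 days. The log2 difference of BRE minus OP50 was 2.70 (SE 0.39) at day 6 and 2.60 (SE 0.37) at day 11, then 1.35 (SE 0.35) at day 15 and 1.05 (SE 0.34) at day 17. Averaged over the 4 days it was 1.93 (SE 0.18). In the order of the 9 group means, BRE at day 6 (0.677 ± 0.206 CPM, SD, n = 3) fell next to OP50 at day 15 (0.785 ± 0.176 CPM), and their libraries overlapped. BRE at day 15 (2.0 ± 0.397 CPM) likewise overlapped OP50 at day 17 (1.68 ± 0.531 CPM), and BRE at day 17 (3.49 ± 0.538 CPM) stood above all other groups.

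The neighbour srlf-14 was rare without the extract at every age and had the largest averaged difference of the 4. Its BRE libraries held 0.279, 0.322 and 0.0549 CPM at day 6, 0.504, 0.203 and 0.636 CPM at day 11, 0.883, 0.838 and 0.620 CPM at day 15, and 0.335, 1.55 and 1.16 CPM at day 17. The OP50 libraries held 0.0448, 0.0335 and 0.0182 CPM at day 1, 0.00873, 0.0462 and 0.0207 CPM at day 6, 0.0182, 0 and 0.0414 CPM at day 11, 0.165, 0.0384 and 0.0145 CPM at day 15, and 0.160, 0.0775 and 0.0617 CPM at day 17. The groups did not overlap on any shared day, and all 4 BRE group means lay above all 5 OP50 group means. The third BRE library of day 6, with 8 counts, lay closest to the OP50 libraries of its day, of which the highest held 6 counts. The log2 difference was 3.05 (SE 0.88) at day 6 and 4.45 (SE 0.91) at day 11, then 3.49 (SE 0.80) at day 15 and 3.35 (SE 0.78) at day 17, with an average of 3.58 (SE 0.42). These rest on 8 to 229 counts in each BRE library, against 0 to 19 in each OP50 library. Neighbours in the order of the group means overlapped throughout: BRE at day 6 (0.219 ± 0.143 CPM, SD, n = 3) was the lowest BRE group and OP50 at day 17 (0.0996 ± 0.0525 CPM) the highest OP50 group.

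The third gene of the run, srlf-13, did not separate the diets on every day. Its BRE libraries held 0.136, 0.173 and 0.0137 CPM at day 6, 0.144, 0 and 0.198 CPM at day 11, 1.86, 0.335 and 0.834 CPM at day 15, and 8.15, 3.98 and 4.84 CPM at day 17. The OP50 libraries held 0 CPM in all 3 libraries of day 1 and all 3 of day 6, then 0.0182, 0.0126 and 0.0414 CPM at day 11, 1.73, 0.557 and 0.471 CPM at day 15, and 2.87, 1.61 and 2.28 CPM at day 17. The diets did not overlap at days 6 and 17 and overlapped at days 11 and 15. At day 6 the mean level with BRE was at least 14-fold higher, when OP50 is taken at a floor of 3 counts over its group (0.00771 CPM). That mean rests on 20, 22 and 2 counts, and its spread does not enter the bound. The log2 difference was 2.18 (SE 1.09) at day 11, 0.15 (SE 0.75) at day 15 and 1.33 (SE 0.74) at day 17. At day 15 the sign rests on single libraries: without the first BRE library of that day the difference was -0.65. BRE at day 17 (5.66 ± 2.20 CPM, SD, n = 3) was the highest group and did not overlap the next, OP50 at day 17 (2.25 ± 0.633 CPM).

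The distant gene srlf-3 had the highest level of the 4 and the smallest averaged difference. Its BRE libraries held 2.92, 6.88 and 3.95 CPM at day 6, 3.45, 8.42 and 9.51 CPM at day 11, 12.8, 11.2 and 7.44 CPM at day 15, and 15.7, 22.4 and 17.2 CPM at day 17. The OP50 libraries held 1.36, 1.31 and 0.763 CPM at day 1, 2.50, 3.39 and 1.95 CPM at day 6, 2.20, 2.80 and 2.70 CPM at day 11, 5.33, 6.30 and 4.83 CPM at day 15, and 10.5, 11.8 and 9.91 CPM at day 17. The diets overlapped at day 6 and not at days 11, 15 and 17. The log2 difference was 0.81 (SE 0.33) at day 6 and 1.47 (SE 0.33) at day 11, then 0.93 (SE 0.33) at day 15 and 0.78 (SE 0.33) at day 17, and 1.00 (SE 0.16) on average. BRE at day 15 (10.5 ± 2.75 CPM, SD, n = 3) and OP50 at day 17 (10.7 ± 0.959 CPM) overlapped, while BRE at day 17 (18.5 ± 3.51 CPM) stood above every other group.

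Few genes of the worm were called between the diets at all. At day 6, where 0.0156% of tested genes were called, srlf-12 was 1 of 3 genes, beside nlp-26, a neuropeptide-like protein gene, and W03G1.5. With the replicate number as a block within the day, 5 genes were called at day 6. At day 11 srlf-12 was 1 of 2 genes (0.0104%), beside nlp-26. At days 15 and 17 no gene was called (0%). In edgeR 546 and 1569 genes had an unadjusted p under 0.05 on these days, and 59 and 3 were called by DESeq2. In the average of the 4 days, 9 genes were called (0.0467%), of which srlf-12, srlf-14 and srlf-3 were 3. In this fit srlf-13 was not called in any of these contrasts. Its averaged difference was 2.63 (SE 0.64), or 1.86 with the OP50 group of day 6, which held no count, set at its floor. It was called on average when the replicate number was a block within the day (2.55) and by DESeq2 (2.48). The presence of members among the called genes was set by their choice and says nothing further about them.

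The calls of single days rested on few libraries. At day 6, srlf-12 was no longer called without OP50 replicate 1 (log2 difference 2.66) or OP50 replicate 3 (2.42), and at day 11 without OP50 replicate 1 (2.44). In the average, srlf-14 was not called without replicate 2 (3.36). srlf-3 was not called without replicate 1 (1.09), replicate 2 (0.93) or replicate 3 (0.96).

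A count of days without overlap puts the same values in another form. In 4 of the 19290 tested genes (0.0207%) all 3 BRE libraries lay above all 3 OP50 libraries on each of the 4 days, and these were srlf-12, srlf-14, W03G1.5 and idpp-1. On single days, BRE lay above OP50 without overlap in 1.89% of genes at day 6 and 1.85% at day 11, and in 3.82% at day 15 and 7.64% at day 17.

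**Figure D2:**
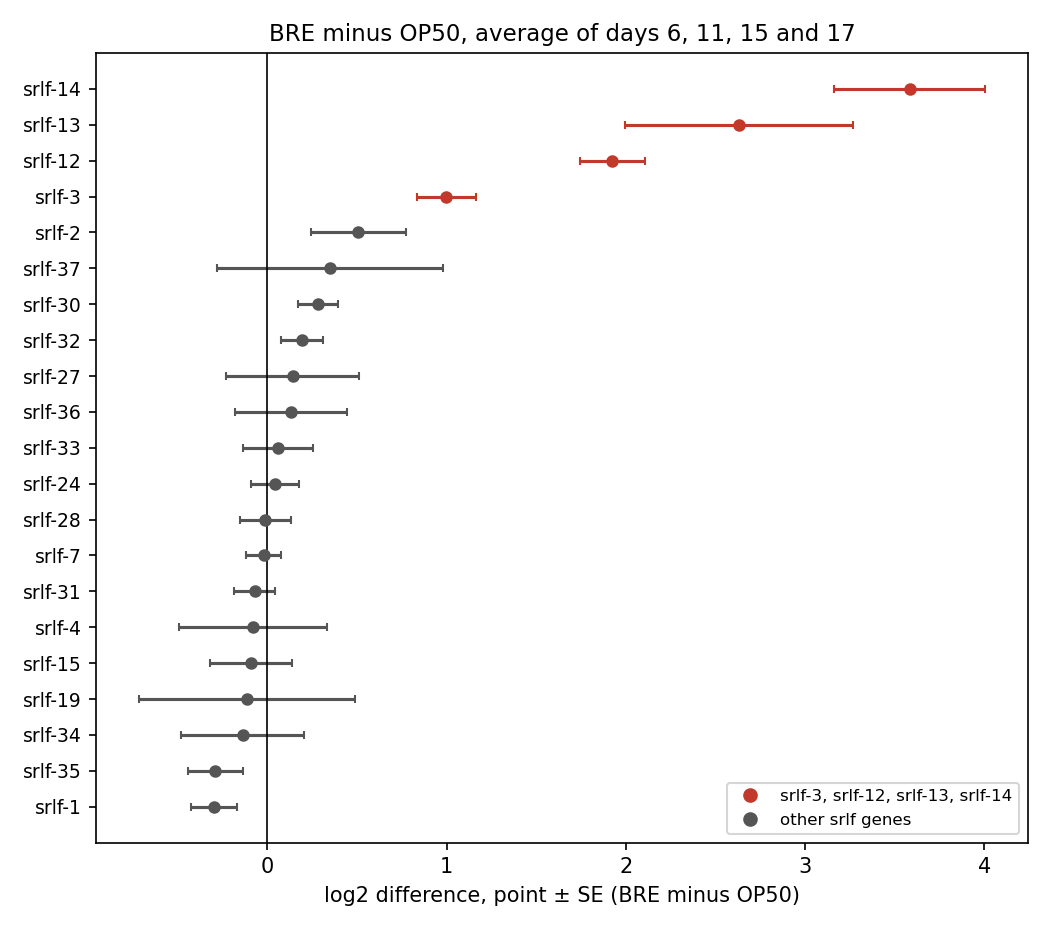
Log2 difference of BRE minus OP50, averaged over days 6, 11, 15 and 17, for the 21 srlf genes that were tested, with bars of ± SE. The 4 chosen genes in red run from 1.00 to 3.58 and the 17 others in grey from -0.30 to 0.51. Since the 4 were picked for a higher level with BRE, a gap between red and grey was built in. The srlf-13 value includes an OP50 group of day 6 without any count and would be 1.86 with that group at its floor.

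The other srlf genes lay near 0 in the same average. Over the 17 that were tested, the averaged log2 difference had a median of -0.01 and ran from -0.30 to 0.51, with 8 above 0, while the median of all tested genes was 0.0012. The median of the 4 chosen genes was 2.28, or 1.89 when the day 6 group of srlf-13 without counts is set at its floor. The 4 had been picked out of the class for a higher level with BRE. A gap between the sets was therefore built in, and nothing is read from it. None of the 17 was called by edgeR or DESeq2 in the average or on any single day. On average, 2 of them, srlf-1 and srlf-30, had an unadjusted p under 0.05 in edgeR, as did srlf-1 at day 6, srlf-2 and srlf-30 at day 11, and none at days 15 and 17. The nearest to the chosen genes was srlf-2, which lies beside srlf-3, at 0.51 (SE 0.27).

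The genes that flank the run on chromosome IV were not called between the diets. F13E9.15, which lies before srlf-12, averaged 0.17 (SE 0.21). F13E9.9, which lies after srlf-13 on the same strand, differed by 0.41 (SE 0.51) at day 11, -0.07 (SE 0.45) at day 15 and -0.05 (SE 0.43) at day 17. It held 0 CPM in the BRE group of day 6 and 1.65 ± 0.624 CPM in that of day 17, against 0.00461 ± 0.00799 and 1.71 ± 0.821 CPM in the OP50 groups of those days (SD, n = 3 each). F13E9.19, with at most 1 count in a library at day 6, differed by 0.39 (SE 0.98) at day 11, -0.55 (SE 0.71) at day 15 and 0.49 (SE 0.66) at day 17. srlf-30, 3770 bases beyond srlf-13 on the other strand, averaged 0.28 (SE 0.11). Beside srlf-3, spp-8 averaged -0.23 (SE 0.11) and sru-7 0.72 (SE 0.51). None of these neighbours was called in an edgeR contrast of BRE with OP50 averaged over the days, though srlf-30 and spp-8 had unadjusted p under 0.05. The 2 genes furthest out on the srlf-12 side, srlf-11 and F13E9.16, had at most 8 and 4 counts in a library and were not tested.

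**Figure D3:**
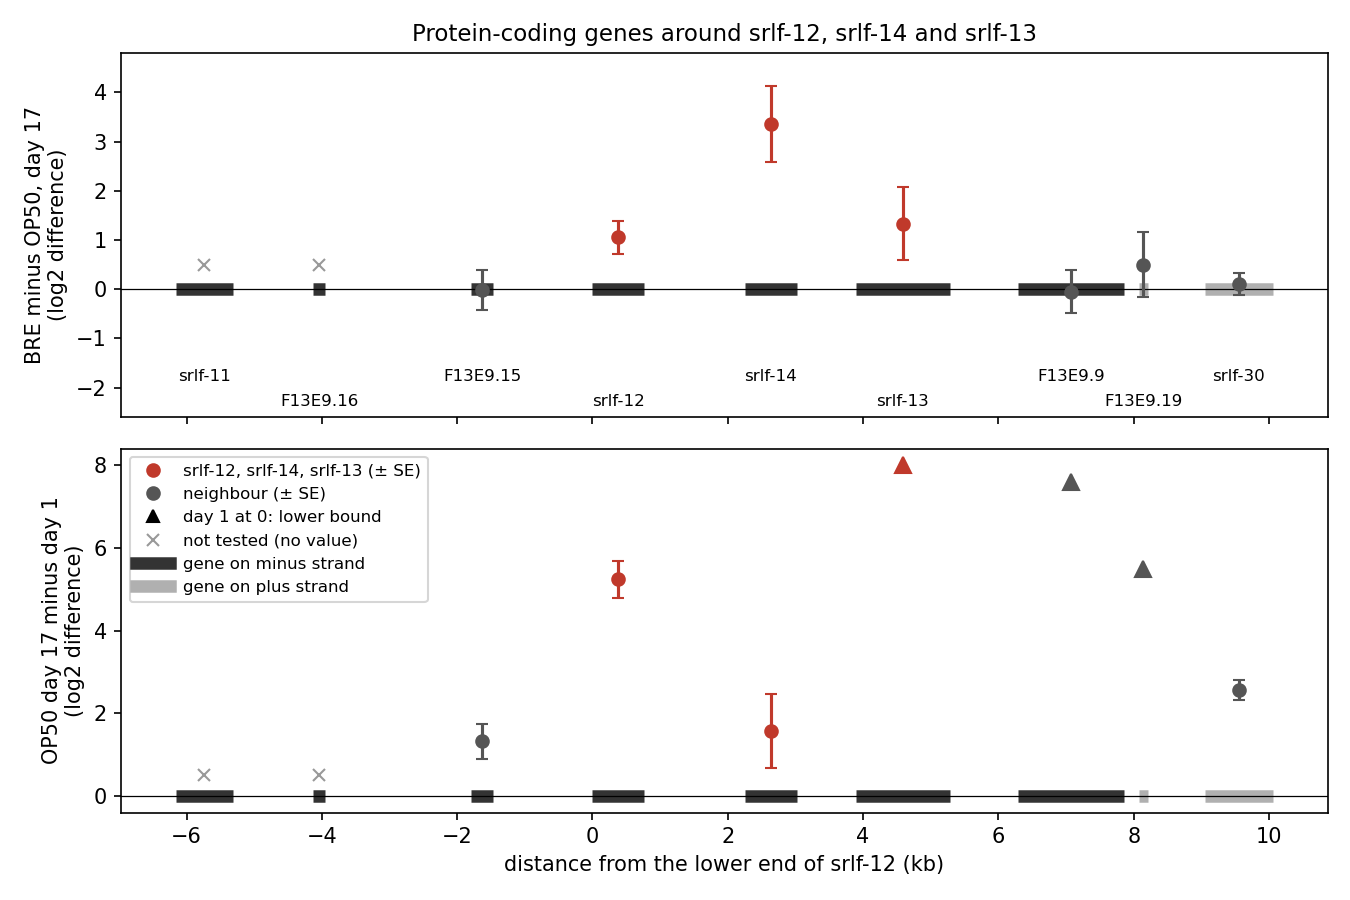
Protein-coding genes around srlf-12, srlf-14 and srlf-13 on chromosome IV, by distance from the lower end of srlf-12 in kb (x axis), with the log2 difference of BRE minus OP50 at day 17 (upper panel) and of OP50 day 17 minus day 1 (lower panel). Points carry ± SE, triangles are lower bounds for genes without a count at day 1, and crosses mark genes not tested. In the upper panel the 3 srlf genes of the run stand at 1.05 to 3.35 and F13E9.15, F13E9.9, F13E9.19 and srlf-30 between -0.05 and 0.49. In the lower panel every gene with a value stands above 0. The genes shown as triangles could pass the filter on low counts only through later groups.

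The second question was how the 4 genes behave as worms age without the extract. The OP50 libraries of days 6 to 17 also served in the choice of the genes, while those of day 1 did not. By day 17, srlf-12, srlf-3 and srlf-13 had risen many-fold over day 1, and srlf-14 was not called. The gene srlf-12 averaged 1.68 ± 0.531 CPM at day 17 and 0.0433 ± 0.0244 CPM at day 1 (SD, n = 3 each), a log2 difference of 5.24 (SE 0.45, adjusted p 2.57e-09 by edgeR). For srlf-3 the means were 10.7 ± 0.959 and 1.14 ± 0.331 CPM, a log2 difference of 3.23 (SE 0.36, adjusted p 1.27e-07). For srlf-13 the mean of 2.25 ± 0.633 CPM at day 17 was at least 256-fold higher than day 1, where no count was recorded in any library (adjusted p 1.11e-05). Without a count at day 1, srlf-13 could pass the filter on low counts only through later groups. For srlf-14 the means were 0.0996 ± 0.0525 and 0.0321 ± 0.0134 CPM, a log2 difference of 1.58 (SE 0.89, adjusted p 0.141). In this contrast 3 of the 4 genes were called higher, where 29.1% of all tested genes were called higher and 24.8% lower. The calls of srlf-12, srlf-3 and srlf-13 held when each library of the 2 groups was left out in turn.

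The genes were not all called from the same day on, and no test compared their timing. At day 6 srlf-3 was above day 1 by 1.19 (SE 0.34, adjusted p 0.00926 by edgeR) on the log2 scale. For srlf-12 the difference at day 6 was 1.23 (SE 0.47, adjusted p 0.0488), and it ranged from 0.85 to 1.71 with adjusted p from 0.0229 to 0.208 as single libraries were left out. That call was lost without day 1 replicate 1 (1.27) or 3 (0.92) and without day 6 replicate 1 (1.32) or 2 (0.85), and also with a replicate block across groups (adjusted p 0.0512). At day 6, 2 of the 4 genes were called higher, against 14% of all tested genes. The same 2 genes were called at day 11, with 19.2% of all genes higher, at differences of 1.17 (SE 0.34, adjusted p 0.00984) for srlf-3 and 2.09 (SE 0.45, adjusted p 0.000973) for srlf-12. At day 15, 3 of the 4 were called, against 26.1% of all genes. The difference was then 2.26 (SE 0.35, adjusted p 1.37e-05) for srlf-3 and 4.14 (SE 0.44, adjusted p 1.04e-07) for srlf-12. srlf-13 was first called by edgeR at day 15, at least 104.4-fold above day 1 (adjusted p 8.37e-05, and 0.000284 without OP50 day 15 replicate 1, the highest of that group). It already had 2, 2 and 6 counts in the OP50 libraries of day 11, without a call (adjusted p 0.163 by edgeR). srlf-14 was not called in OP50 at any day. All these contrasts share the day 1 libraries.

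Between days 6 and 17 the rise was measured within each diet, on separate libraries. The libraries of both diets also served in the choice of the genes, so these calls are given as a description. In BRE worms all 4 genes were called higher at day 17, where 32.7% of all tested genes were called higher. The log2 difference in BRE worms was 5.72 (SE 0.93, adjusted p 5.08e-05) for srlf-13, 2.36 (SE 0.35, adjusted p 9.28e-06) for srlf-12, 2.21 (SE 0.73, adjusted p 0.0137) for srlf-14 and 2.01 (SE 0.34, adjusted p 3.6e-05) for srlf-3, by edgeR. The srlf-14 call was lost without BRE day 6 replicate 3 (1.76, adjusted p 0.0609) or BRE day 17 replicate 2 (1.78, adjusted p 0.0639). In OP50 worms 3 of the 4 were called, where 32.5% of all genes were called higher. There the difference was 4.01 (SE 0.40, adjusted p 4.52e-08) for srlf-12 and 2.04 (SE 0.34, adjusted p 3.39e-05) for srlf-3. srlf-13 was at least 292-fold higher at day 17 (adjusted p 1.09e-05), and srlf-14 differed by 1.91 (SE 0.90, adjusted p 0.0765).

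The size of the extract difference on each day can also be set side by side. The values are those that chose the genes, so they too are a description. The day 17 difference minus the day 6 difference was -1.64 (SE 0.51) for srlf-12, -0.03 (SE 0.46) for srlf-3 and 0.30 (SE 1.32) for srlf-14. For srlf-13 no size is given, since its OP50 group of day 6 held no count. Over the whole table, no gene was called for this quantity by edgeR (0%). An unadjusted p under 0.05 was found for 353 genes, and 6 were called by DESeq2, none of them a srlf gene. A joint test of unequal effects over the 4 days also called none in edgeR (0%), 579 having an unadjusted p under 0.05, while 11 were called by DESeq2.

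**Figure D4:**
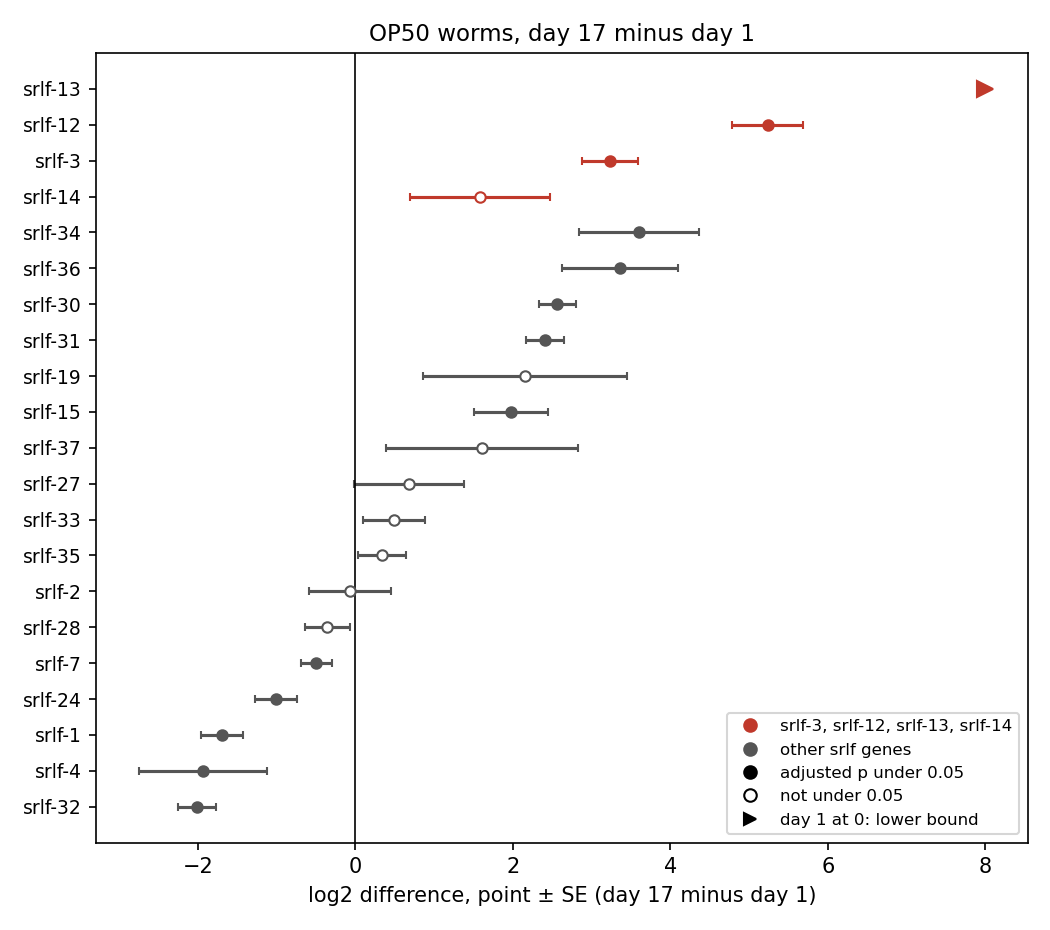
Log2 difference of OP50 day 17 minus OP50 day 1 for the 21 tested srlf genes, with bars of ± SE. Filled symbols have an adjusted p under 0.05 in edgeR, and the srlf-13 triangle is a lower bound because day 1 held no count. Of these genes 8 were called higher, 3 of them chosen ones, and 5 lower, against 29.1% and 24.8% of all tested genes.

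Of the 17 other tested srlf genes, 5 rose and 5 fell between day 1 and day 17 in OP50. These are shares close to the 29.1% called higher and 24.8% called lower among all tested genes, so nothing is read from them about the class. The rises were largest in fold for srlf-34, with 38.3 ± 33.6 CPM at day 17 and 3.15 ± 1.96 CPM at day 1 (SD, n = 3 each). srlf-31, one of the highest of the class, averaged 122.7 ± 21.6 CPM at day 17 and 23.1 ± 1.7 CPM at day 1. srlf-30, the next srlf gene after the run, averaged 45.2 ± 7.33 and 7.63 ± 0.971 CPM. srlf-36 and srlf-15 rose by log2 differences of 3.36 and 1.98. The falls included srlf-32 (-2.02), srlf-1 (-1.69) and srlf-24 (-1.01). As single libraries were left out, the log2 difference ran from 2.58 to 4.05 for srlf-34, from 2.83 to 4.75 for srlf-36 and from 1.68 to 3.14 for srlf-15, all called each time. The falls of srlf-4 (-2.12 to -1.58, adjusted p 0.0499 by edgeR with all libraries) and srlf-7 (-0.59 to -0.28, adjusted p 0.0399) were called in 1 and 2 of the 6 such fits. The median over the 17 was 0.49, against 4.23 over the 4 chosen genes and 0.10 over all tested genes. Marker levels of several tissues moved with age in the same libraries. The summed intestine markers held 643 to 899 CPM in OP50 at day 17 and 4221 to 4855 CPM at day 1. Those of body wall muscle held 289.6 to 548 CPM and 3001 to 4194 CPM, with 7 of 7 called lower, and their part in the srlf values was not tested.

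The tested genes that flank the run also rose with age, in a contrast where 29.1% of all tested genes were called higher. F13E9.9 averaged 1.71 ± 0.821 CPM in OP50 at day 17 and had no count at day 1, at least 195-fold higher (adjusted p 1.43e-08 by edgeR). F13E9.19 averaged 0.394 ± 0.203 CPM at day 17 and had no count at day 1, at least 44.8-fold higher (adjusted p 2.22e-05). F13E9.15 rose by 1.32 (SE 0.42, adjusted p 0.0104) on the log2 scale, to 12.8 ± 1.30 CPM. The genes srlf-13, F13E9.9 and F13E9.19 had no count at day 1, so they passed the filter on low counts only through later groups. Only a rise from day 1 could be found in them, so their rise is given as a description. How many other genes lacked counts at day 1 and had them in all 3 OP50 libraries at day 17 was not counted. Nothing is therefore read from their lying side by side. In 31.2% of tested genes, OP50 day 17 lay above day 1 without overlap. Beside srlf-3, spp-8 was lower at day 17, with a log2 difference of -1.62 (SE 0.22, adjusted p 1.84e-06 by edgeR). There sru-7 (0.85, SE 0.95) and srlf-2 (-0.07, SE 0.53) were not called.

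**Figure D5:**
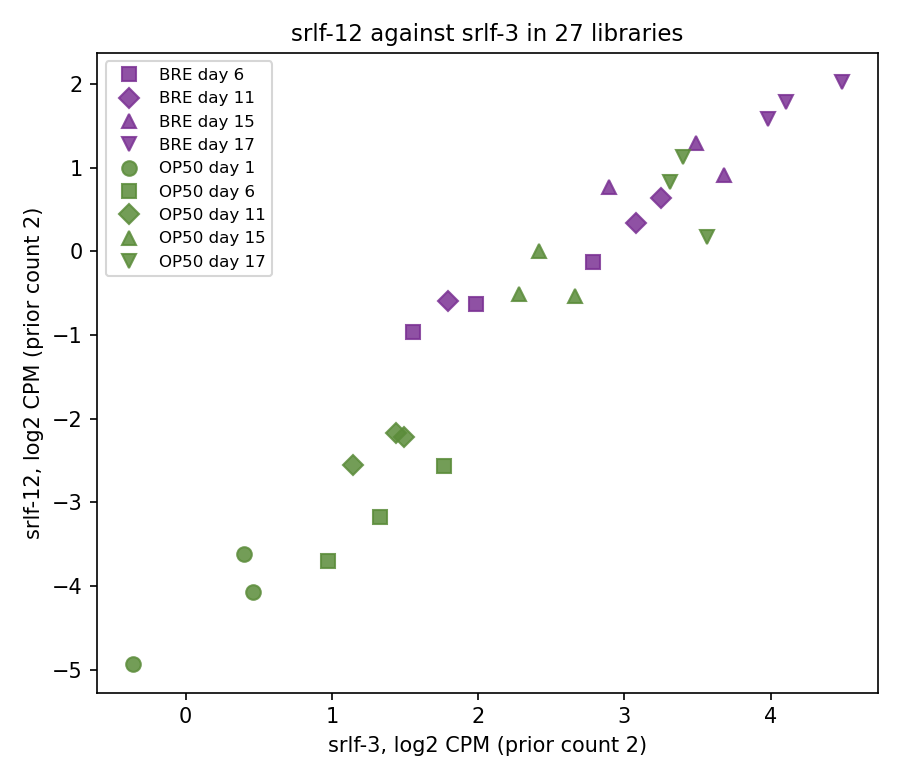
Level of srlf-12 (y axis) against srlf-3 (x axis) in each of the 27 libraries, both as log2 CPM with a prior count of 2. Colour gives the diet and the symbol the day. Pearson r was 0.96 over both diets, with OP50 day 1 at the low end and BRE day 17 at the high end. The diets are offset at low levels. BRE day 11 replicate 1 and OP50 day 6 replicate 2 had srlf-3 at 1.79 and 1.77, and srlf-12 at -0.59 and -2.57.

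The 4 genes were compared with one another across the 27 libraries, which share age and diet as sources of variation, so the correlations are given as a description. Pearson's r of log2 CPM was 0.96 between srlf-12 and srlf-3, which lie 2402842 bases apart. It was 0.85 between srlf-12 and srlf-13, 0.83 between srlf-3 and srlf-13, 0.77 between srlf-12 and srlf-14, 0.72 between srlf-3 and srlf-14 and 0.62 between srlf-13 and srlf-14. With each library taken as its deviation from its group mean, r was 0.77 between srlf-12 and srlf-3, and 0.58 between srlf-13 and srlf-14. It was 0.02 between srlf-12 and srlf-13 and -0.08 between srlf-3 and srlf-13. For the other pairs with srlf-14 it was 0.36 with srlf-12 and 0.21 with srlf-3. How r of such deviations is spread over all pairs of genes was not computed. Low counts limit these values, with no count in 7 libraries for srlf-13 and in 1 for srlf-14.

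Outside the class, the genes whose pattern was most like that of each member over the 27 libraries were found by Pearson's r of log2 CPM. W03G1.5 came first for srlf-12 (0.95) and for srlf-3 (0.93) and second for srlf-14 (0.78). It averaged 4.12 ± 2.89 CPM in BRE and 0.778 ± 0.128 CPM in OP50 at day 6, and 12.2 ± 4.10 CPM in BRE and 4.91 ± 0.679 CPM in OP50 at day 17 (SD, n = 3 each). After it came T14G8.4 (0.91) and F53A9.7 (0.90) for srlf-3, and a pair of gene IDs named numr-1 (0.92 and 0.91) for srlf-12. For srlf-13 they were Y60C6A.2 (0.94), Y60C6A.3 (0.93) and srg-47 (0.92), and for srlf-14 Y38H6A.1 (0.82), W03G1.5 and srh-233 (0.69). Y38H6A.1 and W03G1.5 were themselves called with BRE on average, at log2 differences of 3.59 and 1.63. Some of these genes had very low levels. In OP50 at day 6, Y38H6A.1 averaged 0.00461 CPM and srh-233 0.00257 CPM, and srg-47 held 0 CPM in both diets. Among all tested genes, the share with a correlation above 0.5 was 27.0% for srlf-3, 26.5% for srlf-12, 30.9% for srlf-13 and 1.14% for srlf-14. Over the 24 libraries of days 6 to 17, 7 of these 12 places held the same genes.

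Other genes called with the extract are given for comparison. nlp-26 averaged 12.8 ± 1.94 CPM in BRE and 2.65 ± 0.393 CPM in OP50 at day 6, and 2.98 ± 1.63 CPM in BRE and 1.66 ± 0.258 CPM in OP50 at day 17 (SD, n = 3 each). idpp-1 averaged 4.37 ± 3.94 CPM in BRE and 0.238 ± 0.141 CPM in OP50 at day 6, and 2.91 ± 2.97 CPM in BRE and 0.138 ± 0.104 CPM in OP50 at day 17. Between day 17 and day 1 in OP50, nlp-26 fell by 1.62 (SE 0.32, adjusted p 0.000243 by edgeR) and idpp-1 by 3.61 (SE 0.83, adjusted p 0.000912), while W03G1.5 rose by 3.33 (SE 0.41, adjusted p 5.01e-07). The correlation of nlp-26 with srlf-3, srlf-12 and srlf-13 over the libraries was -0.06, 0.01 and -0.28, and 0.41 with srlf-14.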

How the data were processed

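RNA of whole worms was sequenced in 27 libraries. The authors deposited unnormalized counts per gene. The tools named in the submitters' processing notes are HISAT2 2.0.5, featureCounts, SAMtools 1.7, Trimmomatic and FastQC. The sources used here do not give strandedness, the counting of read pairs and multiply mapped reads, the build or the annotation. In each library 54.5% to 68.9% of counts from 1 to 20 were even, so 1 fragment may give more than 1 count. Coordinates come from the WBcel235 annotation, which held 46924 of the 46934 gene IDs.

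edgeR 4.0.16 in R 4.3.3 was run on the counts with TMM normalization, filterByExpr (minimum count 10) and the quasi-likelihood test, with 1 mean for each of 9 groups. The fit was tested on simulated data. SEs were derived from the F statistic, and 95% intervals are normal approximations. The members, gene lists and contrasts were chosen with earlier results of these data known. All 4 members and the srlf genes called or next to a member were named, with the 3 best correlated genes per member outside the class. Deviations of same-numbered libraries from their group means had r of 0.22, 0.19 and 0.31 at day 6, against at most -0.02 between differently numbered libraries. At day 11 they had 0.50, 0.41 and 0.22, against at most 0.23. Same-numbered libraries did not deviate together in every pair at days 15 and 17. Alternatives were DESeq2 1.42.0, RLE factors, no filter, a replicate block, fits of only the compared groups, and leaving out libraries.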

Additional observations from a re-analysis of the deposited data

How the results depend on the processing

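Of 567 values of the members' log2 differences under other settings, 551 kept their sign. The number of members called with BRE at day 6 was 0 in a fit of only the compared groups and 0 to 1 as single libraries were left out. At day 11 it was 0 with only the compared groups, 3 with DESeq2 and 0 to 1 with libraries left out. DESeq2 called 2 members at day 15, 1 at day 17 and, on average, also srlf-13 (2.48). Leaving out a replicate number gave 1 to 2 members called on average. The srlf genes called between OP50 day 6 and day 1 numbered 6 to 7 with libraries left out, against 10.

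Reversals with libraries left out concerned srlf-13 with BRE at day 15 (-0.648 to 0.937, and -0.171 without the 4 msp-rich libraries, a setting chosen after seeing the data), srlf-14 between OP50 day 6 and day 1 (-1.01 to 0.083) and between day 15 and day 1 (-0.186 to 1.56), and the day 17 minus day 6 effect of srlf-14 (-0.443 to 0.743) and srlf-3 (-0.309 to 0.349). The srlf-3 effect was also 0.00852 with a replicate block within the day. Causes were not tested. With DESeq2 13, 7, 59, 3 and 30 genes of the table were called with BRE at days 6, 11, 15 and 17 and on average, against 3, 2, 0, 0 and 9. With the replicate block these counts were 5, 3, 4, 1 and 17. Among the members the replicate block gained the averaged call of srlf-13, lost that of srlf-12 between OP50 day 6 and day 1, and changed no other call. Without the filter 14 were called at day 15 and 14 on average. RLE factors moved library medians by -0.14 to 0.058 (log2) and turned no member's direction. Low counts limit srlf-13 and srlf-14: a group without a count allows up to 3 counts, or 0.00771 CPM in OP50 at day 6, for counting error only. If 1 fragment gave more than 1 count, this floor would be higher and the fold bounds lower.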

Other observations

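The 15 srlf gene entries that did not pass the filter on low counts held at most 12 counts in any library. The most abundant of them per kilobase of exon was srlf-29, with 0.0369 CPM per kb over the 27 libraries and no count in 6 of them. The least abundant were the 2 gene IDs named srlf-6, with 2 counts and 1 count in all libraries together. srlf-11, the srlf gene on the srlf-12 side of the run, had 43 counts in all and none in 14 libraries.

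Among the disordered protein classes, the abu genes, which are components of the pharyngeal cuticle, had averaged BRE minus OP50 differences above 0 in 9 of 11 tested genes, against 50.3% of all tested genes, with a median of 0.91 and none called by edgeR. In OP50, 4 of these 11 were called higher at day 17 than at day 1 and 0 lower, against 29.1% and 24.8% of all tested genes. The idpp genes had 8 of 16 above 0 with the extract and a median of 0.01, with idpp-1 the only one called. In the other classes, 13 of 17 fipr, 34 of 50 pqn, 4 of 6 idpc and 3 of 3 nspb genes were above 0. Their medians were 0.14, 0.09, 0.22 and 1.92, the last being the largest of these classes. Of the idpa and idpb genes 0 of 3 and 0 of 1 were, with medians of -0.05 and -0.40.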
